A study of Triticum aestivum with 10 samples.

Results

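Transcript levels of PsbO, PsbP and the chloroplast fructose-bisphosphatase FBP were followed in young seeds of the winter wheat cultivar Redland, measured with Affymetrix wheat arrays. The members were all probe sets that the probe-to-gene table gave to LOC543291 (PsbO), LOC543290 (PsbP) or FBP, 3 of the 771 annotated genes. They made up 5 of the 61179 probe sets tested: 1 for PsbO, 2 for PsbP and 2 for FBP. The 10 arrays formed 5 groups of 2. Seeds of watered plants had been taken at 24, 48 and 72 hours after fertilization (HAF here), and seeds of plants deprived of water at 48 and 72 HAF. All plants were vernalized for 6 weeks and grown under 16 h of light and 8 h of dark. One description places the drought start at 24 HAF and another at 48 HAF, so the length of drought behind the 48 HAF seeds is not settled. Both arrays of a group are labelled as biological replicates without any plant or pot being named. The p-values therefore set differences against the spread of these samples only, and part of that spread may be technical. In limma it is a spread shared over all 5 groups.

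PsbO and PsbP are nuclear-encoded proteins of the lumenal side of photosystem II. PsbO stabilises the manganese cluster that splits water, and PsbP helps the cluster hold calcium and chloride. Chloroplast fructose-bisphosphatase removes a phosphate from fructose bisphosphate in the regeneration phase of the Calvin cycle and is switched on in the light through thioredoxin. In a young cereal grain the photosynthetic cells lie in the green inner pericarp, the maternal layer around the endosperm. RNA here came from whole seeds, so fewer green cells and less RNA per green cell cannot be told apart. Of the green tissue markers listed for this work, the chlorophyll-binding proteins, the Rubisco small chain and Rubisco activase had no annotated probe set in the table used here. The assignment to the pericarp was therefore not tested.

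Replicates correlated at 0.951 to 0.987 over all probe sets in the groups of 48 and 72 HAF, and at 0.820 in control 24 HAF. Replicate 2 of control 24 HAF stood apart from the other 9 arrays (r between 0.811 and 0.898) and also read 11.8 on a bacterial spike-in probe set, BioB, against 3.86 to 6.998 on the others. Its levels enter only the comparison of 24 with 48 HAF, while its spread from replicate 1 enters the shared variance of every limma comparison. Several arrays correlated more closely with an array of another group than with their own replicate: control 48 HAF replicate 2 with drought 48 HAF replicate 1 (r = 0.993), control 72 HAF replicate 2 with drought 72 HAF replicate 1 (0.996), and control 48 HAF replicate 1 with control 24 HAF replicate 1 (0.996). Whether this reflects the plants, the sampling or the labels was not tested.

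PsbO and PsbP were among the brightest transcripts of the seed on all 10 arrays. The PsbO probe set, of the type named _a_at, lay at the 97.4th to 99.1th percentile of the tested probe sets of its array, and the brighter PsbP probe set at the 98.1th to 99.3th. The second PsbP probe set, of the type named _x_at, lay at the 84.7th to 97th percentile. The brighter FBP probe set lay at the 85.6th to 92.7th. The dim FBP probe set lay at the 29.3th to 38.1th, with log2 values of 2.83 to 3.50, and no detection calls were used here to say whether it was above background. Brightness depends on a probe set's own probes, so these ranks do not order the genes by transcript number. Wheat is hexaploid, and near-identical copies of a gene may share probes. In Affymetrix naming the suffix _x_at marks a probe set whose probes may also match other transcripts, and _a_at one shared by transcripts of the same gene.

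For PsbO, the log2 levels on replicates 1 and 2 were 10.48 and 10.99 in watered seeds at 24 HAF. They were 10.46 and 10.88 in watered and 10.77 and 10.23 in droughted seeds at 48 HAF. At 72 HAF they were 10.83 and 10.97 in watered and 11.25 and 11.30 in droughted seeds. The droughted 72 HAF pair was the highest and the most closely spaced of the 5 groups, and it did not overlap with any other group. The group means ran from 11.27 ± 0.036 (SD, n = 2) in drought 72 HAF through 10.90 ± 0.10 in control 72 HAF, 10.73 ± 0.36 in control 24 HAF and 10.67 ± 0.29 in control 48 HAF to 10.50 ± 0.38 in drought 48 HAF. Apart from the first step, the neighbours in that order lay within their spread. Over the 10 arrays PsbO spanned 1.07 on the log2 scale, or 2.10-fold.

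For PsbP, the brighter probe set read 10.93 and 10.85 in watered seeds at 24 HAF. It read 10.87 and 11.25 in watered and 11.09 and 10.59 in droughted seeds at 48 HAF. At 72 HAF it read 10.77 and 11.38 in watered and 11.50 and 11.07 in droughted seeds. The groups overlapped at each time, and no step between neighbouring group means, from 11.28 ± 0.30 (n = 2) in drought 72 HAF to 10.84 ± 0.36 in drought 48 HAF, exceeded the replicate spread. The means between these ends were 11.07 ± 0.43 in control 72 HAF, 11.06 ± 0.27 in control 48 HAF and 10.89 ± 0.054 in control 24 HAF.

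PsbP on its second probe set varied over a wider range, 2.03 on the log2 scale. It read 8.39 and 9.60 in watered seeds at 24 HAF. It read 8.30 and 8.57 in watered and 8.13 and 7.56 in droughted seeds at 48 HAF, and 8.59 and 9.32 in watered and 9.60 and 9.41 in droughted seeds at 72 HAF. The 4 arrays of 72 HAF lay above the 4 of 48 HAF, although the lowest of the former (8.59) and the highest of the latter (8.57) nearly met. Droughted seeds were the lowest pair at 48 HAF and the highest pair at 72 HAF. The group means were 9.50 ± 0.14 in drought 72 HAF, 8.99 ± 0.85 in control 24 HAF, 8.96 ± 0.52 in control 72 HAF, 8.43 ± 0.19 in control 48 HAF and 7.84 ± 0.40 in drought 48 HAF (n = 2 each). In this order, control 72 HAF lay just clear of control 48 HAF and control 48 HAF clear of drought 48 HAF, and the pairs before them overlapped.

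For FBP, the brighter probe set read 8.02 and 8.07 in watered seeds at 24 HAF. It read 7.90 and 8.63 in watered and 8.25 and 7.68 in droughted seeds at 48 HAF, and 8.08 and 8.49 in watered and 8.76 and 8.49 in droughted seeds at 72 HAF. Drought and control arrays overlapped at both times, although at 72 HAF the higher control and the lower drought array had equal values at this precision. The group means ran from 8.63 ± 0.19 (n = 2) in drought 72 HAF through 8.29 ± 0.29 in control 72 HAF, 8.27 ± 0.52 in control 48 HAF and 8.04 ± 0.032 in control 24 HAF to 7.96 ± 0.40 in drought 48 HAF, with overlap between all neighbours in that order. The dim FBP probe set had group means of 2.89 ± 0.089 in control 48 HAF to 3.33 ± 0.23 in control 24 HAF, and did not follow the brighter one over the 10 arrays (r = -0.078, n = 10 arrays).

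**Figure D1:**
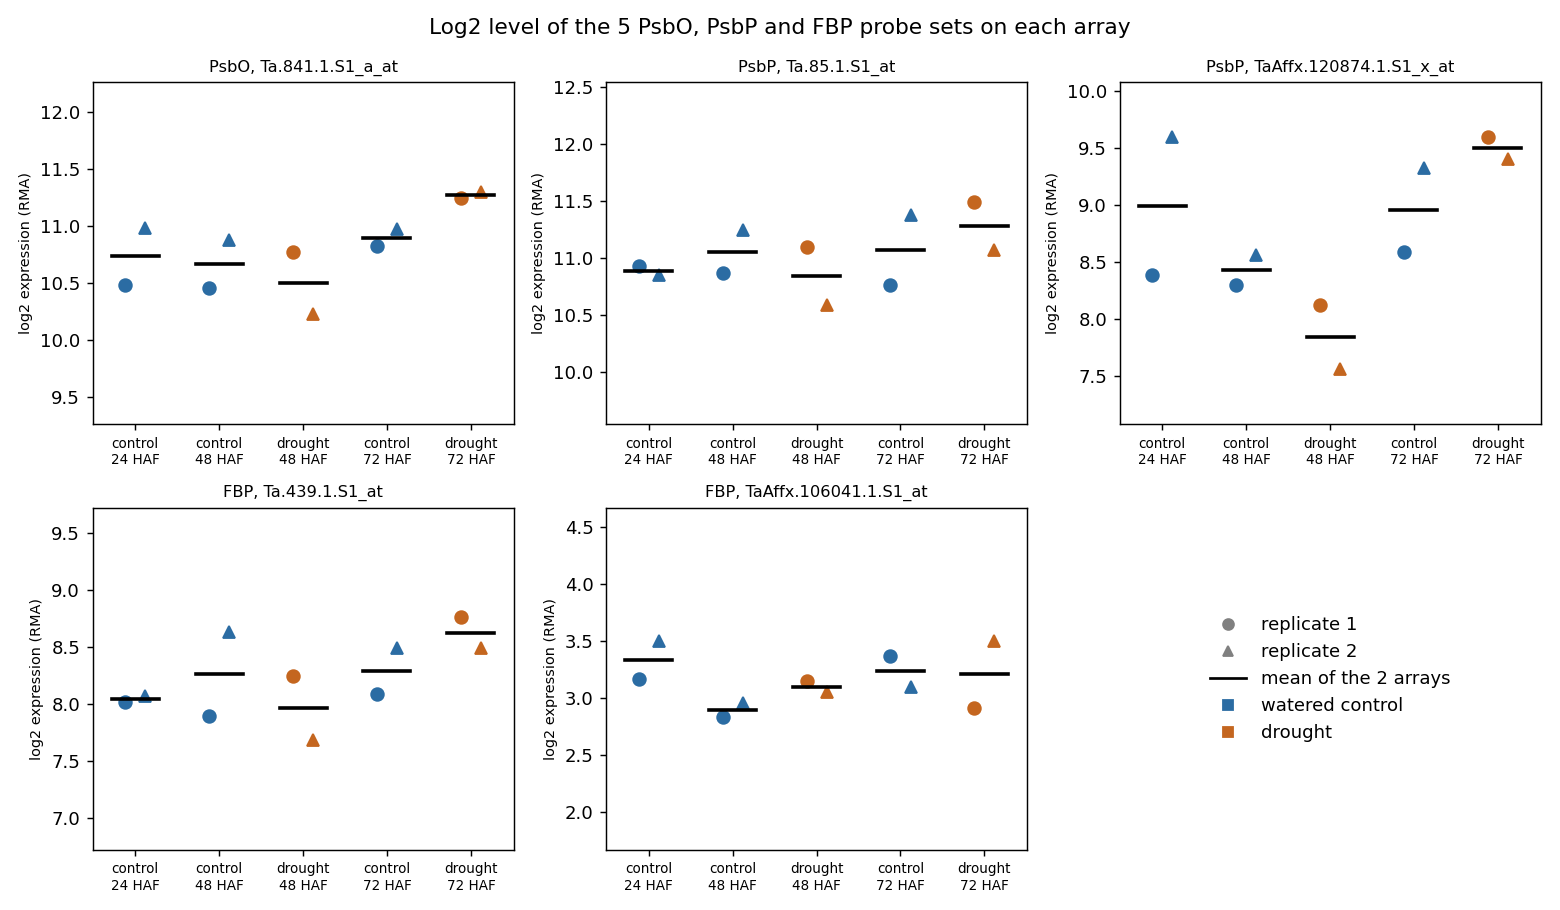
Log2 level of each of the 5 probe sets on each of the 10 arrays by group, with circles for replicate 1, triangles for replicate 2, a black line for the mean of the 2 arrays, blue for watered and orange for droughted seeds. Each panel spans the same number of log2 units; the droughted 72 HAF mean is the highest of the 5 groups for PsbO, for both PsbP probe sets and for the bright FBP probe set, and the droughted 48 HAF mean is the lowest in those 4 panels.

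In droughted seeds, the 5 member probe sets were higher at 72 than at 48 HAF on average, by amounts that did not pass the test across all probe sets. PsbO differed by 0.77 ± 0.29 (SE, 95% interval 0.12 to 1.43), a 1.71-fold difference with limma adjusted p = 0.953. The second PsbP probe set differed by 1.66 ± 0.48 (interval 0.56 to 2.76), or 3.15-fold (adjusted p = 0.953). The brighter PsbP probe set differed by 0.44 ± 0.30 (interval -0.24 to 1.13) and FBP by 0.66 ± 0.41 (interval -0.28 to 1.60). On the dim FBP probe set the difference was 0.11 ± 0.27 (-0.51 to 0.73). Across the whole array 0% of probe sets met limma's adjusted p of 0.05 in this comparison, and 2470 had an unadjusted p under 0.05. The unadjusted p was 0.0259 for PsbO and 0.00806 for the second PsbP probe set in limma, so 2 of the 5 members had an unadjusted p under 0.05, against 4.04% of all probe sets. The arrays did not overlap, with 72 HAF higher, for 3 of the 5 members (PsbO, the second PsbP and the brighter FBP probe set), against 23.3% of all probe sets. Both drought 48 HAF arrays bore on the size: without replicate 2, the lowest array of that time for these 4 probe sets, the differences were 0.50 for PsbO, 0.19 for the brighter PsbP probe set and 0.38 for FBP, and without replicate 1 they were 1.04, 0.69 and 0.95. The brighter PsbP probe set differed by 0.23 without drought 72 HAF replicate 1.

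In watered seeds the same step was smaller for 4 of the 5 probe sets and larger for the dim FBP probe set, at 0.34 ± 0.27 (SE, interval -0.29 to 0.96). PsbO was 0.23 ± 0.29 (SE) higher at 72 than at 48 HAF (limma adjusted p = 1, interval -0.43 to 0.89). The 2 PsbP probe sets differed by 0.02 ± 0.30 and 0.52 ± 0.48, and FBP by 0.02 ± 0.41, with intervals of -0.67 to 0.70, -0.58 to 1.62 and -0.92 to 0.96. In this comparison 0% of probe sets were called, against 187 probe sets below 0.05 before adjustment. The arrays did not overlap, with 72 HAF higher, for 2 of the 5 members (the second PsbP and the dim FBP probe set), against 15.7% of all probe sets. Leaving out single arrays gave 0.023 (without control 48 HAF replicate 1) to 0.44 (without replicate 2) for PsbO, and 0.16 (without control 72 HAF replicate 2) to 0.89 (without replicate 1) for the second PsbP probe set. The time step under drought exceeded that with water by 0.54 ± 0.41 (SE) for PsbO, 0.43 ± 0.43 for the brighter and 1.13 ± 0.68 for the second PsbP probe set, and 0.64 ± 0.58 for FBP. For the dim FBP probe set it was smaller than with water (-0.23 ± 0.39, interval -1.11 to 0.66). None of these 5 differences passed (limma adjusted p = 1.00 for each), 0% of all probe sets did (227 had an unadjusted p under 0.05), and the intervals of the first 4 reached from -0.39 to 1.47, -0.54 to 1.40, -0.42 to 2.69 and -0.69 to 1.97. Without single arrays the PsbO value ran from 0.27 (without drought 48 HAF replicate 2) to 0.81 (without replicate 1), and that of the brighter PsbP probe set from 0.12 (without control 72 HAF replicate 1) to 0.73 (without replicate 2). FBP ran from 0.27 (without control 48 HAF replicate 2) to 1.01 (without replicate 1).

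Over both treatments, 4 arrays of 72 HAF stood against 4 of 48 HAF. PsbO was at 11.09 ± 0.22 (SD, n = 4) and 10.58 ± 0.30 (n = 4), a difference of 0.50 with a 2-sided exact permutation p of 0.0571. PsbP on its second probe set was at 9.23 ± 0.44 and 8.14 ± 0.43, a difference of 1.09 with exact permutation p = 0.0286, the smallest that 4 arrays against 4 can give. The brighter PsbP probe set differed by 0.23 (exact p = 0.314), FBP by 0.34 (exact p = 0.229) and the dim FBP probe set by 0.22 (exact p = 0.2). These were 5 of 10 such tests on the members, given without adjustment. By limma the adjusted p was 0.974 for each of the 5, and 0% of all probe sets passed. Again PsbO and the second PsbP probe set, at 0.0369 and 0.0117, were the 2 of 5 members below 0.05 before adjustment in limma, against 3.76% of all probe sets (2298). The second PsbP probe set was the 1 of 5 members free of overlap, against 4.9% of all probe sets with 72 HAF higher.

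Under drought at 48 HAF, 4 of the 5 probe sets read lower than in watered seeds and the dim FBP probe set higher (0.20 ± 0.27), and 0 of the 5 passed the test. PsbO differed by -0.17 ± 0.29 (SE, interval -0.83 to 0.49), the brighter PsbP probe set by -0.22 ± 0.30 (-0.90 to 0.47) and FBP by -0.30 ± 0.41 (-1.24 to 0.64). For the second PsbP probe set the difference was -0.59 ± 0.48 (-1.69 to 0.51). The limma adjusted p was 1 for each, with 0% of all probe sets called and 82 at an unadjusted p under 0.05. The last of these was the 1 of 5 members whose drought arrays both lay below the controls, against 15.4% of all probe sets, and the dim FBP probe set was the 1 of 5 with both above, against 15.9%. Without drought replicate 2 the differences were 0.10 for PsbO and 0.036 for the brighter PsbP probe set, and without control replicate 2 they were 0.039 for PsbO and 0.065 for FBP.

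At 72 HAF the same 4 probe sets read higher under drought, again short of the test, and the dim FBP probe set differed by -0.027. PsbO differed by 0.37 ± 0.29 (SE, interval -0.28 to 1.03), and its 2 drought arrays lay above its 2 controls. The second PsbP probe set differed by 0.54 ± 0.48 (-0.56 to 1.64) and was also free of overlap. That made 2 of the 5 members, against 13% of all probe sets. FBP differed by 0.34 ± 0.41 (-0.60 to 1.28) and the brighter PsbP probe set by 0.21 ± 0.30 (-0.47 to 0.90). The limma adjusted p was 1 for each, and 0% of all probe sets were called, and 252 lay below 0.05 before adjustment. Without control 72 HAF replicate 1 the differences were 0.30 for PsbO, 0.18 for the second PsbP probe set, 0.13 for FBP and -0.094 for the brighter PsbP probe set, and without control replicate 2 they were 0.45, 0.91, 0.54 and 0.52.

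Averaged over both times, drought and control seeds differed by 0.10 ± 0.20 (SE) for PsbO, -0.0017 ± 0.21 and -0.023 ± 0.34 for the 2 PsbP probe sets and 0.02 ± 0.29 for FBP. The intervals reached from -0.36 to 0.57, -0.49 to 0.48, -0.80 to 0.76 and -0.65 to 0.68, which leaves room for changes of those sizes in either direction. Exact permutation p-values of 4 drought against 4 control arrays were 0.714 for PsbO, 1 for both PsbP probe sets, 0.971 for FBP and 0.629 for the dim FBP probe set (2-sided). By limma's adjusted p, 0% of all probe sets were called, and 68 probe sets lay below 0.05 before adjustment.

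From 24 to 48 HAF in watered seeds, PsbO differed by -0.07 ± 0.29 (SE), the 2 PsbP probe sets by 0.17 ± 0.30 and -0.56 ± 0.48, and FBP by 0.22 ± 0.41 (limma adjusted p = 0.923, 0.801, 0.630 and 0.807). The dim FBP probe set differed by -0.44 ± 0.27 (adjusted p = 0.621). In this comparison too 0% of all probe sets were called, and 907 had an unadjusted p under 0.05. On control 24 HAF replicate 2, the array that stood apart, the brighter PsbP and FBP probe sets (10.85 and 8.07) lay close to replicate 1, while PsbO (10.99) and the second PsbP probe set (9.60) lay above it. Without that array the differences were 0.19 for PsbO, 0.13 and 0.043 for the PsbP probe sets and 0.24 for FBP, and 0 probe sets were called.

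**Figure D2:**
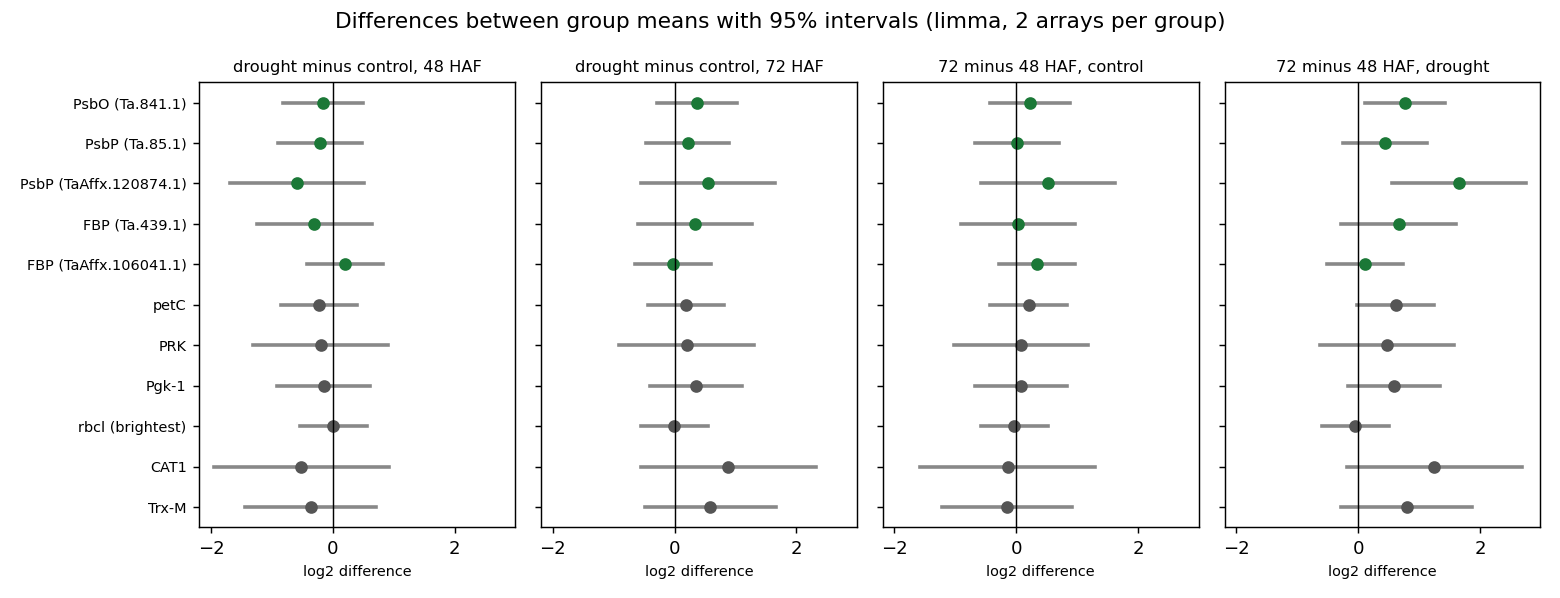
Difference between group means on the log2 scale (point) with its 95% interval from limma (line), for the 5 member probe sets (green) and 6 other genes (grey), in 4 comparisons of 2 arrays against 2. In the panel of 72 minus 48 HAF under drought the intervals of PsbO and of the second PsbP probe set lie above 0; in the other panels the intervals of the members include 0.

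Under drought both PsbP probe sets read higher at 72 than at 48 HAF on average, by 0.44 for the brighter and 1.66 for the second. In watered seeds the brighter one hardly differed (0.02 ± 0.30, SE) and the second differed by 0.52 ± 0.48, and the 2 probe sets were compared further. Between them r was 0.599 over the 10 arrays and 0.781 over the 8 arrays of 48 and 72 HAF. The log2 gap between them, the brighter minus the second on the same array, was 2.56 and 2.68 in watered and 2.97 and 3.03 in droughted seeds at 48 HAF. It was 2.18 and 2.05 in watered and 1.90 and 1.67 in droughted seeds at 72 HAF. The gap was closely repeated within these 4 groups, with means of 2.62 ± 0.083, 3.00 ± 0.044, 2.12 ± 0.085 and 1.78 ± 0.17 (SD, n = 2 each), while each probe set alone spread further in most of them. The 4 arrays of 72 HAF lay below the 4 of 48 HAF (difference -0.86, 2-sided exact permutation p = 0.0286). Drought arrays lay above controls at 48 HAF and below them at 72 HAF, so over both times the difference was 0.02 (exact permutation p = 0.943). These 2 tests were added after the values had been seen, so their p-values are descriptive and give no support for a difference between the probe sets. At 24 HAF the gap was 2.54 on replicate 1 and 1.26 on replicate 2, the array that stood apart. Which transcripts each probe set binds was not tested.

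**Figure D3:**
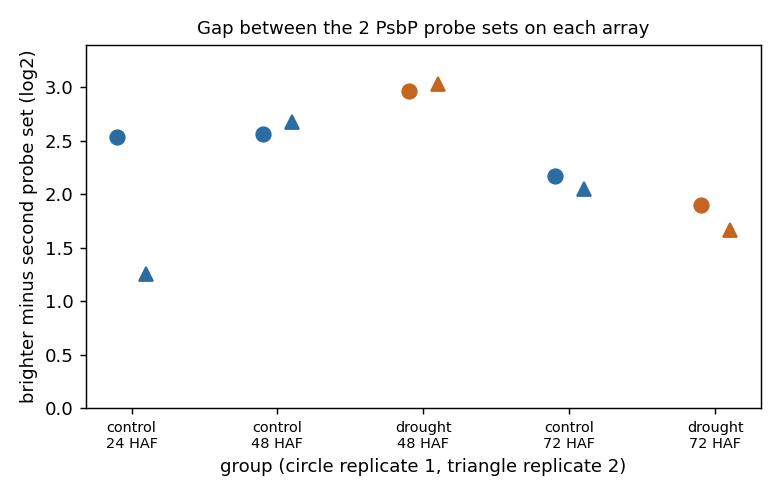
Log2 gap between the brighter and the second PsbP probe set on each array, by group, with blue for watered and orange for droughted seeds. The 4 arrays of 48 HAF lie at 2.56 to 3.03 and the 4 of 72 HAF at 1.67 to 2.18, while the 2 arrays of 24 HAF lie at 1.26 and 2.54.

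The brightest probe sets of the 3 genes shared an order of arrays that crossed the treatment labels. At 48 HAF, PsbO, PsbP and FBP, each by its brightest probe set, were highest on control replicate 2, then on drought replicate 1, then on control replicate 1, and lowest on drought replicate 2. The second PsbP and the dim FBP probe set did not have it, so it held for 3 of the 5 members, against 6.57% of all probe sets. On the second PsbP probe set both controls lay above both drought arrays. It was noticed in the values and is a description of these 4 arrays. At 72 HAF, control replicate 1 was the lowest of the 4 arrays for 4 of the 5 member probe sets, against 20% of all probe sets. Over the 10 arrays, r was 0.687 between PsbO and the brighter PsbP probe set, 0.840 between PsbO and FBP, and 0.929 between PsbP and FBP, with n = 10 arrays that share their RNA and normalization. Over the 8 arrays of 48 and 72 HAF these were 0.757, 0.893 and 0.929.

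Of other photosynthesis genes, 5 of the list drawn up for this work had an annotated probe set. They were petC, the Rieske iron-sulphur protein of the cytochrome b6f complex, and the Calvin cycle genes LOC543283 (PRK, phosphoribulokinase), LOC543496 (Pgk-1, phosphoglycerate kinase) and LOC100049018 (rbcl). The tables do not say whether LOC543496 is the chloroplast enzyme of the cycle or its cytosolic counterpart in glycolysis. CAT1, a catalase, was the fifth. Catalases remove peroxide, including that of photorespiration, and whether CAT1 has that role in these seeds was not tested. Between 48 and 72 HAF under drought, 4 of the 5 were higher at 72 HAF and 1 was lower, with a median of 0.59 against 0.056 over all probe sets, of which 55.6% were higher, and 0 of the 5 passed limma's adjusted p. The differences of petC (0.62), Pgk-1 (0.59) and CAT1 (2.38-fold) came with no overlap of the arrays, which 23.3% of all probe sets also showed, while PRK differed by 0.47 with overlap. In watered seeds the median was 0.074 against 0.0015 over all probe sets, with 3 genes higher and 2 lower and again 0 of 5 passing. For drought against control the median was -0.20 at 48 HAF (1 higher, 4 lower) and 0.20 at 72 HAF (4 higher, 1 lower), against 0.0022 and 0.029 over all probe sets, with 0 of 5 passing at either time. For drought over both times it was -0.00025, with 2 higher and 3 lower.

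The gene petC was closest to PsbO in level pattern among these. It read 10.97 and 11.55 in watered seeds at 24 HAF, and 10.89 and 11.24 in watered and 11.09 and 10.59 in droughted seeds at 48 HAF. At 72 HAF it read 11.20 and 11.34 in watered and 11.36 and 11.55 in droughted seeds, which again put the droughted pair on top of that time. PRK followed PsbP more closely: it read 9.58 and 10.24 in watered and 10.17 and 9.25 in droughted seeds at 48 HAF, and 9.41 and 10.56 in watered and 10.44 and 9.93 in droughted seeds at 72 HAF. Its replicates lay farthest apart in watered seeds at 72 HAF. Thioredoxin m (LOC542973, Trx-M), a plastid redox protein added to the list after the gene names had been seen, lay at 8.95 ± 0.47 in drought 48 HAF and 9.75 ± 0.28 in drought 72 HAF (SD, n = 2). In watered seeds it lay at 9.61 ± 0.71 at 24 HAF, 9.31 ± 0.53 at 48 HAF and 9.16 ± 0.41 at 72 HAF.

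LOC100049018 had 28 probe sets with mean levels from 1.70 to 13.96, and its brightest read 13.94 to 14.09 on 9 arrays and 13.15 on control 24 HAF replicate 2. That probe set lay at the upper end of the table, whose highest value was 14.1. Including thioredoxin m, 5 of the 6 other genes had the 48 HAF order of arrays of the members' brightest probe sets, against 6.57% of all probe sets. The same 5 had control replicate 1 as the lowest array at 72 HAF, against 20% of all probe sets. That order had been picked from the members' own values. The exception was rbcl, judged by its brightest probe set. It had the full reverse of the 48 HAF order, over a narrow range of 14.05 to 14.08 on those arrays.

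**Figure D4:**
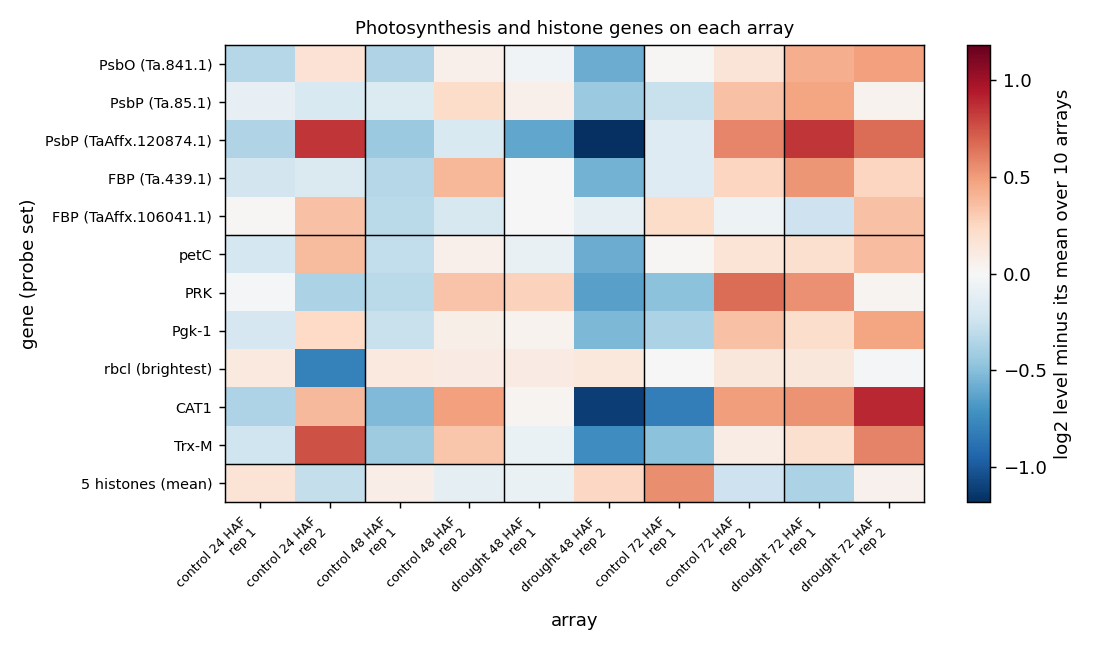
Log2 level of each gene on each array minus its own mean over the 10 arrays, in colour from blue (lower) to red (higher), with the 5 member probe sets on top, 6 other genes in the middle and the mean of 5 histone genes at the bottom. Drought 48 HAF replicate 2 is blue for PsbO, PsbP, the brighter FBP row and 5 of the 6 other genes, and control 72 HAF replicate 1 is low for PRK, Pgk-1, CAT1 and thioredoxin m while the histone row is at its highest there.

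Markers of other seed tissues moved on some of the same arrays. The 5 histone genes, marks of dividing cells, were all measured. Their mean log2 level at 48 HAF was 10.86 and 10.66 in watered and 10.69 and 11.02 in droughted seeds. It was highest on drought replicate 2, where PsbO, PsbP and FBP were lowest by their brightest probe sets. Singly, only 1 of the 5 histone genes had the full reverse of that 48 HAF order of arrays. At 72 HAF the histone mean was 11.33 and 10.53 in watered and 10.40 and 10.83 in droughted seeds. On control 72 HAF replicate 1, 4 of the 5 histones were highest, while LOC543183 was lowest there. The share of all probe sets highest on that array was not counted here. The 11 endosperm genes of gliadins, glutenin, avenin-like proteins, starch synthesis and an amylase inhibitor, all measured, averaged 5.16 to 5.42 on the 4 arrays of 48 HAF. At 72 HAF they averaged 5.14 and 8.07 in watered and 8.19 and 7.22 in droughted seeds, so control 72 HAF replicate 1 stayed at the 48 HAF level, with 5 of 11 above the array's median against 9 of 11 on the other 3. At 24 HAF they averaged 5.21 and 6.70. Their part in the PsbO, PsbP and FBP differences was not tested. The 5 genes of embryo and drying tissue averaged 3.46 to 4.22 on the 10 arrays. Profilin, the only measured gene of the pollen and anther list, read 12.38 to 12.60, and whether it marks pollen in these seeds was not tested.

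Among 770 other annotated genes, each by its brightest probe set, those with the pattern most like PsbO over the 10 arrays were LOC100037589 (r = 0.960), LOC542881 (0.954), LOC543064 (0.954), petC (0.935) and LOC542972 (0.934). Over the 8 arrays of 48 and 72 HAF petC came first (0.973). For PsbP they were LOC732707 (0.969), LOC543094 (0.969, HGGT, a homogentisate geranylgeranyl transferase of tocotrienol synthesis), PRK (0.967), LOC100049048 (0.965) and LOC542877 (0.955), and the same 5 led over the 8 arrays. For FBP they were LOC543167 (0.940), PsbP (0.929), LOC543104 (0.928), LOC732707 (0.905) and LOC606363 (0.896). The median r over all 770 genes was -0.037 for PsbO, 0.073 for PsbP and 0.0094 for FBP over 10 arrays. These correlations are the highest of many over few arrays of shared origin and are given as a description. For the genes given by a LOC number alone, the reference table gave no synonym.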

How the data were processed

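RNA of whole developing seeds was hybridised by the authors to Affymetrix wheat arrays, 1 per sample. The authors deposited log2 values computed with affy and RMA per the submitters' processing notes, with versions and settings not given in the sources used here. RMA as usually run corrects background and brings the probe values of the arrays to a common distribution before they are summarised per probe set. Array medians of the deposited probe set values ran from 4.08 to 4.24, so these distributions were not identical. Whether this departs from a usual run was not tested. Values ran from 1.03 to 14.1 and were used as deposited. The table held 0 other per-sample columns.

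The 111 control probe sets were left out and 61179 were tested. Of these, 1273 carried 1 gene symbol, 0 several and 59906 none, covering 771 genes, of which 770 were found by Entrez identifier in the gene table of assembly IWGSC CS RefSeq v2.1. That table was used for names only. Differences were fitted with limma 3.58.1 in R 4.3.3 on all 10 arrays (1 mean per group and a variance trend with intensity, with 5 residual and 3.59 prior degrees of freedom) in 8 contrasts, with Benjamini-Hochberg adjustment over all tested probe sets and a threshold of 0.05. Exact 2-sided permutation tests compared 4 arrays with 4. With 2 against 2 their smallest p is 0.333. The fit was also tested on simulated data with known differences.

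Members, gene lists and tests were chosen with earlier results of these data known. All 5 member probe sets are reported. Other lists were matched by symbol and synonym, up to 12 genes named by brightness, a gene being represented by its brightest probe set, and the 5 most similar genes per member by Pearson correlation. LOC543415, whose synonyms hold both atpA and the invertase name IVR1, was not counted. Alternatives left out each array, added the replicate number as a block, dropped the trend, tested only probe sets above the median level, rescaled the arrays, left out both 24 HAF arrays, or averaged a gene's probe sets.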

Additional observations from a re-analysis of the deposited data

Results flagged for a closer look

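The second PsbP probe set was lower in both drought arrays than in both controls at 48 HAF and higher in both at 72 HAF. The drought difference was 1.134 larger at 72 than at 48 HAF on the log2 scale, and the test of that difference did not pass (limma adjusted p = 1.00, interval -0.42 to 2.69). It was 0.768 without control 72 HAF replicate 1 and 1.499 without control 72 HAF replicate 2. Members were not screened for an outlying array within a group, since each group held 2.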

How the results depend on the processing

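None of 524 values of the 4 member probe sets other than the dim FBP one under the alternatives passed limma's threshold. The size of the adjusted p depended on which arrays and probe sets entered the fit, the 24 HAF pair among them. Without both 24 HAF arrays, that of 72 against 48 HAF under drought was 0.344 for PsbO and 0.327 for the second PsbP probe set (limma), against 0.953 with them. Over both treatments these were 0.382 and 0.302, against 0.974. With only probe sets above the median level tested, limma's adjusted p of 72 against 48 HAF under drought was 0.750 for both probe sets. Many alternatives leave a difference as it is by construction; of the 255 values that moved, 218 kept their direction and 37 turned it. Leaving out each array gave 0 to 2 called probe sets for drought against control at 48 HAF, for control 72 against 48 HAF and for 72 against 48 HAF over both treatments, and 0 to 25621 for control 48 against 24 HAF, the last without control 24 HAF replicate 1. Where values turned in these fits, they ran as follows. At 48 HAF drought differed by -0.44 to 0.10 for PsbO, -0.47 to 0.036 for the brighter PsbP probe set and -0.67 to 0.065 for FBP, and at 72 HAF PsbP by -0.094 to 0.52. Over both times drought differed by -0.033 to 0.24 for PsbO, -0.16 to 0.15 and -0.21 to 0.16 for the 2 PsbP probe sets and -0.17 to 0.20 for FBP (limma). With the plain means of the permutation tests it differed by -0.035 to 0.32, -0.15 to 0.16 and -0.14 to 0.22 for PsbO, PsbP and FBP. From 24 to 48 HAF the ranges were -0.32 to 0.19 (PsbO), -0.023 to 0.36 and -1.16 to 0.043 (PsbP) and -0.15 to 0.59 (FBP). From 48 to 72 HAF in watered seeds they were -0.29 to 0.32 (PsbP) and -0.34 to 0.39 (FBP). From 48 to 72 HAF over both treatments PsbP (brighter) ran from 0.076 to 0.38 and FBP from 0.16 to 0.53 without turning. Quantile normalization turned drought over both times to 0.013 and 0.00 for the PsbP probe sets and control 48 against 24 HAF to -0.16 for FBP. Centring arrays on their medians turned control 48 against 24 HAF to 0.010 for PsbO and control 72 against 48 HAF to -0.020 for PsbP and -0.012 for FBP. Averaging probe sets turned control 48 against 24 HAF to -0.20 for PsbP and -0.11 for FBP. The cause of these turns was not tested.

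Same-numbered arrays deviated from their group means with correlations of mixed sign, from -0.519 to 0.586. The labels do not say whether the numbers pair the arrays, and these values cannot settle it. With the replicate block, PsbO under drought differed by 0.774 between 72 and 48 HAF and 0 probe sets were called in any contrast. A crossed pairing at 48 and at 72 HAF, chosen after seeing the data, also called 0. With 2 arrays per group, the median 95% interval extended 0.92 (log2) either way.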
